A study of Homo sapiens with 3 samples.

Results

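The genes described here make glucose from smaller molecules, break down amino acids and turn the nitrogen they release into urea. The list held 41 genes, chosen by function, and 36 of them were matched to an array probe set that carries exactly 1 gene symbol (where a gene had several such probe sets, the one with the highest mean over the 3 arrays). SDS, SDSL, GPT2, GLS2 and GLUD1 were not matched and were not analysed here. The 36 genes are a small part of the 18417 genes matched in the same way.

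Liver feeds the body between meals by gluconeogenesis, in which pyruvate, lactate and amino acid carbon are built back up into glucose and released through glucose-6-phosphatase. Amino acids are first stripped of their nitrogen by transaminases and dehydratases, their carbon skeletons enter central metabolism, and the ammonia is detoxified by the urea cycle, which is split between mitochondria and cytosol. In liver many of these genes are under hormonal control: glucagon and glucocorticoids raise several of them, and insulin restrains them in part by keeping FOXO transcription factors out of the nucleus.

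The cells were HepG2, an established human liver tumour line that keeps part of the hepatocyte programme. The series had 3 Affymetrix arrays, 1 for each group: untreated cells, cells that received graphene oxide (GO) for 24 h, and cells that received reduced graphene oxide (rGO), which carries fewer oxygen groups, for 24 h. Each material was given at its own EC20, the dose taken from viability assays at the 20% effect level, and no concentrations are given, so the 2 materials may have been dosed differently. All 3 groups were grown in MEM medium, the labels do not say how many cultures went into an array, and 1 tumour line stands in for liver here.

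All 9 measured hepatocyte and HepG2 markers, including ALB, APOB, AFP and GPC3, were past the level filter used below. The leukocyte markers PTPRC and CD3E read 3.66 and 4.74 on average and the stromal markers DCN and LUM 3.78 and 3.38, all under that filter. Of the markers listed for other cell types, 2 of 5 leukocyte, 3 of 9 stromal and endothelial and 3 of 4 bile duct genes passed it, among them LYZ (13.3 on average) and KRT19 (9.74). Summed levels of these 3 lists, as log2 values, ran from 13.4 to 13.6, 10.4 to 10.5 and 12.0 to 12.2 over the 3 arrays. The highest gene of each list was LYZ, ACTA2 and EPCAM in turn. The leukocyte sum had the order of LYZ over the 3 arrays. The stromal and endothelial sum was lowest in rGO, where ACTA2 was not. The bile duct sum was highest in GO (12.2), where EPCAM was lowest (11.1) and KRT19 highest (10.3). Single markers differed in both directions within a list: in GO minus control the 9 hepatocyte genes ran from -0.85 (FGB) to 0.70 (TTR) with a median of 0.04, and the 4 bile duct genes from -0.34 (EPCAM) to 0.79 (KRT19) with a median of -0.0076. The part of such shifts in the differences below was not tested. In bulk RNA, fewer cells of a type and less RNA per cell cannot be told apart.

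Values are log2 expression levels, so a difference of 1 is a 2-fold difference. Medians over all 33297 probe sets were 6.65 (control), 6.63 (GO) and 6.66 (rGO). The level filter asked for a 3-array mean at or over the 40th percentile of genes (6.66) and kept 11050 genes and 32 of the 36 measured members. FBP1, TDO2, OTC and ARG1 lay under it, where background can hide or distort a difference. With 1 array per group there is no replicate, no error on a difference and no test; precision is limited by the number of arrays. As a scale, the gap between the differences of 2 probe sets of the same gene was divided by the square root of 2. Its robust SD was 0.0804 in GO minus control and 0.0539 in rGO minus control (365 genes). All genes past the filter had robust SDs of 0.244 and 0.116.

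In the GO array, RIDA was 2.76-fold lower and DEPP1 was 2.19-fold higher than in the control, and they were the only members past 2-fold. The histidine-degrading enzyme HAL was 1.81-fold higher and the methionine adenosyltransferase MAT1A 1.53-fold lower. In the rGO array 0 of the 32 members reached 1.5-fold in either direction, where 0.0271% of all genes were that much higher and 0.127% lower. The catalytic subunit of glucose-6-phosphatase, G6PC1, was higher than control in the GO array and lower in the rGO array.

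**Figure D1:**
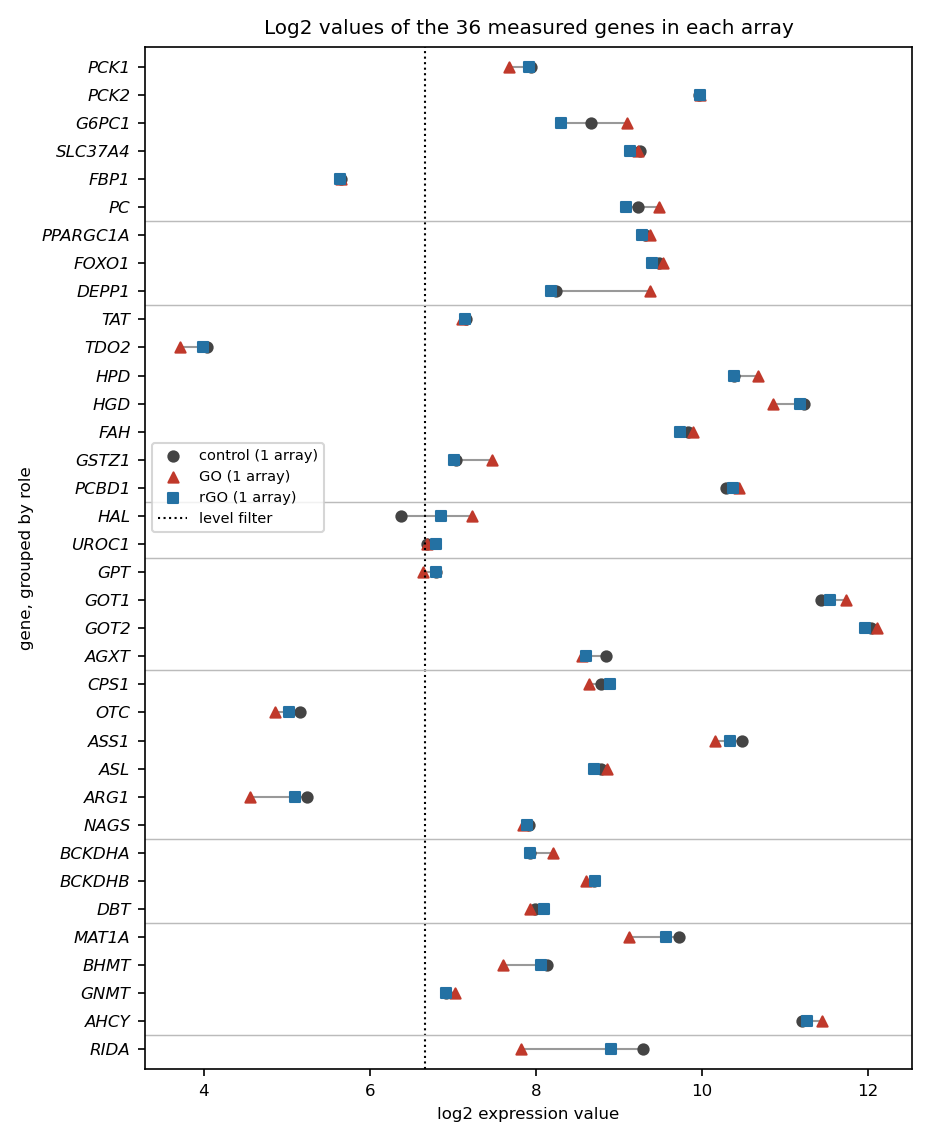
Log2 expression value (horizontal axis) of each of the 36 measured genes (rows, in blocks by role) in the control (circle), GO (triangle) and rGO (square) array, 1 array each, with a grey line from the lowest to the highest value and a dotted line at the level filter of 6.66. RIDA spans 7.82 to 9.29 and DEPP1 8.18 to 9.37, whereas the symbols of most other genes lie close together.

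The promoters of 5 members are printed to set their letters beside these values: DEPP1, G6PC1 and HAL, which were higher in the GO array, and MAT1A and BHMT, which were lower. Each is the 250 bases before the start site, 5′ to 3′ on the gene's strand, from RefSeq's GRCh38.p14 annotation; the build behind the array annotation is not given in the sources used here. Capitals mark matches to any of the short motifs named after them.
DEPP1: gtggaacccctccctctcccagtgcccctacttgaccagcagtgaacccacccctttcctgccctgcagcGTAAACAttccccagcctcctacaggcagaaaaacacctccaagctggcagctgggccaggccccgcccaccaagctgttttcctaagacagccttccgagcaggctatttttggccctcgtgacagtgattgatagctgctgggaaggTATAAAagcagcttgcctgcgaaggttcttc
G6PC1: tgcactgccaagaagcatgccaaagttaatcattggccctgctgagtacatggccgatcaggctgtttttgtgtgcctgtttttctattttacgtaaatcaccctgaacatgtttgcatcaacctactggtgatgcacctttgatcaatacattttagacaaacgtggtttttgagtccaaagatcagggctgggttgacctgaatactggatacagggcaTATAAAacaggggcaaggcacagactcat
HAL: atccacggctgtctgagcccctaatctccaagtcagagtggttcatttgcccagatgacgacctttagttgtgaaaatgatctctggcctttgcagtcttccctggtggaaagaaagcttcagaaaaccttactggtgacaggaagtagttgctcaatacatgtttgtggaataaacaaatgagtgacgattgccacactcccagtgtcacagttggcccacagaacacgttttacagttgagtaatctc
MAT1A: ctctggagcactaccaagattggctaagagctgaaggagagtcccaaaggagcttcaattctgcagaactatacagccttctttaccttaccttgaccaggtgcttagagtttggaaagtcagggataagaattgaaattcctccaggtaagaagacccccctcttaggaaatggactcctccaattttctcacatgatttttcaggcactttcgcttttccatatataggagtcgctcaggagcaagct
BHMT: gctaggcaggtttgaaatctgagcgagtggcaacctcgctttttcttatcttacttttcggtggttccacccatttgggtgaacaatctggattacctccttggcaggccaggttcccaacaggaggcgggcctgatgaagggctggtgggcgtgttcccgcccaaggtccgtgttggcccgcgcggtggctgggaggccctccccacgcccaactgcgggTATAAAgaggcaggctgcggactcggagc
They lie at chr10:44978810-44979059 (minus strand), chr17:42900549-42900798 (plus), chr12:95996345-95996594 (minus), chr10:80289659-80289908 (minus) and chr5:79111559-79111808 (plus). The motifs, read on both strands, were the forkhead core TGTTTAC, bound by FOXO proteins, the insulin response strings TGTTTTG and TATTTTG, the cyclic AMP response element TGACGTCA and the TATA string TATAAA. Of the measured members, 31 matched the promoter table, with 42 promoters between them; PCK1, TAT, HGD, GPT and RIDA did not. DEPP1 held TGTTTAC on the opposite strand, 180 to 174 bases before the start. That is 1 of the 42 promoters (2.38%), close to the 2.98% of all 35116 promoters that hold it. TATAAA stood 31 to 26 bases before the start in DEPP1 and 29 to 24 bases before it in both G6PC1 and BHMT. It occurred in 7 of the 42 promoters (16.7%), each of a different member, and in 10.7% of all promoters. TGTTTTG was found in 1 of the 42, of HPD (4.30% of all promoters), and TATTTTG (3.94%) and TGACGTCA (1.65%) in 0 of them. HAL and MAT1A held none of these strings in this window, and no 2 of the matches shown overlap. Only exact strings were counted, and variants of them were not. These matches are descriptions of letters and show no binding.

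The comparison of GO with control asked whether levels in these pathways differed after the oxide. Over the 32 members past the filter the median difference was 0.03 (0.0046 over all 36 measured), against 0.0061 over all 11050 genes, and 18 members were above 0 and 14 below (51.1% of all genes were above 0). At least 2-fold higher was 1 member, DEPP1, where 0.253% of all genes were, and at least 2-fold lower was 1, RIDA, where 0.914% were. At 1.5-fold, 2 members were higher (1.91% of all genes) and 2 lower (4.23%). HAL, 1 of the 2 higher, passed the filter only through the exposed arrays in which it is high. Its place in that count and among the 18 above 0 is no support. GPT, among the members below 0, passed it through the control and rGO arrays and is no support there. These counts are too small to set the group apart from the background. A difference of 0.25 or more in either direction was seen in 14 of the 32 members, or 43.8%, beside 33.1% of all genes. HAL was again among these 14 and is no support there either. Within 0.1 of control were 12 members, or 37.5%, beside 33.0% of all genes.

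The comparison of rGO with control asked the same of the reduced material. The median over the 32 members was -0.02, against -0.0084 over all genes, with 11 above 0 and 21 below (46.8% of all genes were above 0). None of the 32 was 1.5-fold higher or lower, where 0.0271% and 0.127% of all genes were, and at 2-fold those shares were 0% and 0.0181%. The largest differences were those of HAL, RIDA and G6PC1, the only 3 members at 0.25 or more (9.38% of the 32, and 5.30% of all genes). HAL passed the filter only through the exposed arrays in which it is high. Its place among these 3 and among the 11 above 0 is no support. Within 0.1 of control were 19 members, or 59.4%, close to the 60.5% of all genes. Both comparisons use the same control array, so an error in that array enters both.

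**Figure D2:**
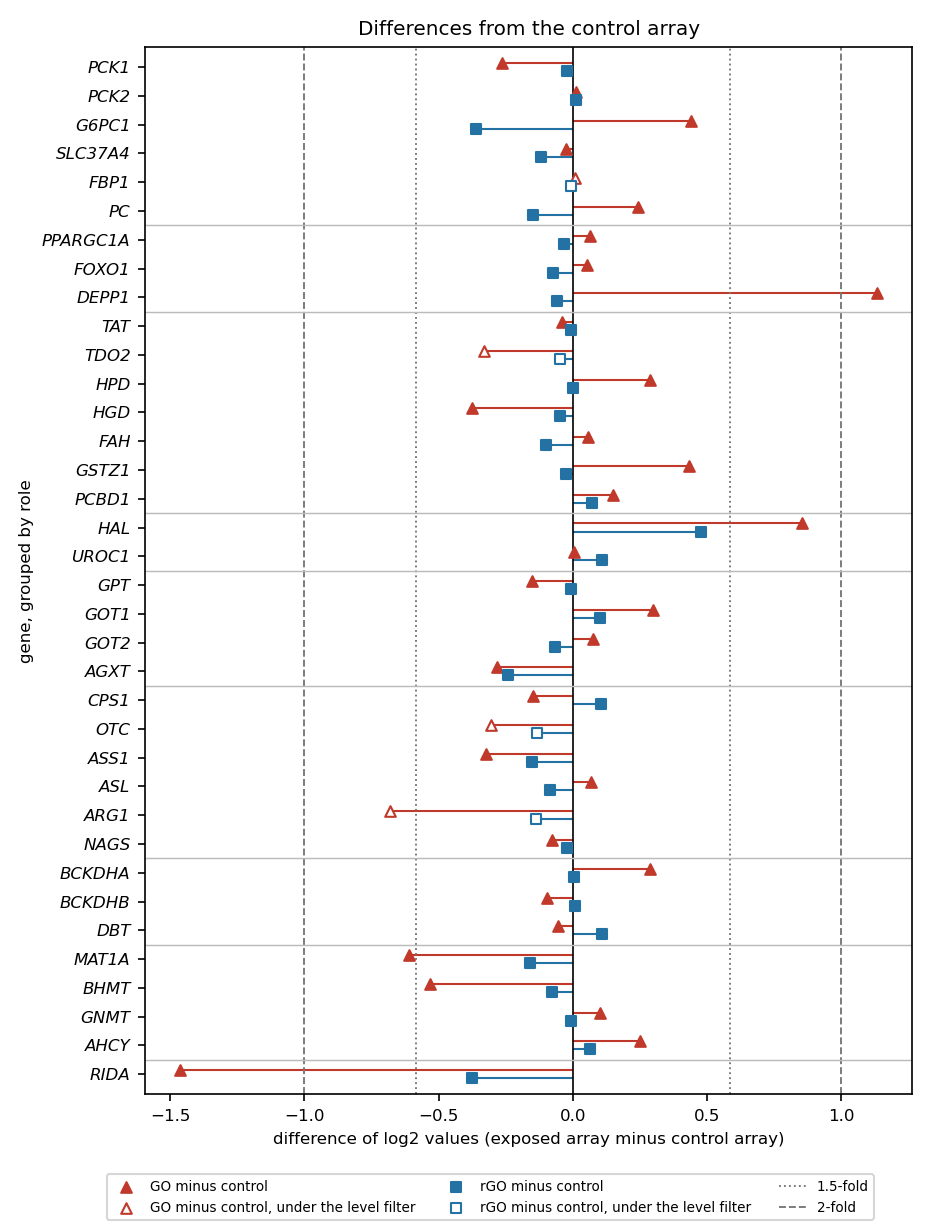
Difference of log2 values from the control array (horizontal axis) for each measured gene (rows, in blocks by role), with GO minus control as triangles and rGO minus control as squares; open symbols are the 4 genes under the level filter, and dotted and dashed lines mark 1.5-fold and 2-fold. RIDA and DEPP1 are the only symbols beyond the dashed lines, and every rGO square lies inside the dotted ones.

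Among the enzymes that commit carbon to glucose, G6PC1 (Entrez Gene 2538) makes the last step by freeing glucose from its phosphate. It read 8.66 in the control, 9.10 after GO and 8.30 after rGO. GO was the highest and rGO the lowest of the 3 arrays, with a difference from control of 0.44 (1.36-fold) in GO and -0.36 in rGO (1.28-fold lower). Among all 11050 genes these were the 486th highest GO difference and the 115th lowest rGO difference. SLC37A4 carries glucose-6-phosphate into the endoplasmic reticulum for that step. It read 9.26 in the control, 9.23 after GO and 9.14 after rGO, and no exposed array stood above the control.

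PCK1, the cytosolic phosphoenolpyruvate carboxykinase and a textbook fasting gene, did not follow G6PC1. Its values were 7.94 in the control, 7.68 after GO and 7.92 after rGO, so that GO was the lowest, at -0.26. PCK2, the mitochondrial form, read 9.97, 9.98 and 9.98 in the control, GO and rGO arrays and was level in all 3. Pyruvate carboxylase, PC, supplies the oxaloacetate for both, and its order was that of G6PC1. PC read 9.24 in the control, 9.48 after GO and 9.09 after rGO, with differences of 0.24 and -0.15 from control. FBP1, fructose-1,6-bisphosphatase, was under the filter in every array at 5.64 to 5.66.

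Of the regulators, PPARGC1A (a coactivator that drives gluconeogenic genes) and FOXO1 (the insulin-restrained factor) were close to level. PPARGC1A read 9.31, 9.38 and 9.28 and FOXO1 9.48, 9.53 and 9.40 in the control, GO and rGO arrays. DEPP1 (Entrez Gene 11067), a fasting-induced gene known as a FOXO target, differed from them. It read 8.24 in the control, 9.37 after GO and 8.18 after rGO. The GO array alone was high, by 1.13 over control, the 18th highest of all 11050 differences, and rGO stood at -0.059.

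The enzymes of phenylalanine and tyrosine breakdown run in a chain from TAT through HPD, HGD and GSTZ1 to FAH, and they did not shift as a block. TAT, the tyrosine aminotransferase, read 7.16, 7.11 and 7.15 in the control, GO and rGO arrays. HPD, the next enzyme, stood at 10.39, 10.67 and 10.39, with GO above the other arrays by 0.29 over control. HGD, which opens the homogentisate ring, went the other way with 11.23, 10.85 and 11.18. Its 2 probe sets held identical values and count as 1 measurement.

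GSTZ1, the isomerase that follows HGD, read 7.04 in the control, 7.47 after GO and 7.01 after rGO, which put GO 0.43 over control while rGO was level. FAH, which completes the chain, read 9.84, 9.89 and 9.74 and was nearly level. PCBD1 recycles the pterin cofactor of phenylalanine hydroxylation and also binds the liver factor HNF1. It read 10.30, 10.45 and 10.37, and its differences of 0.15 and 0.073 were within the robust SD of all genes. TDO2, which opens the ring of tryptophan, was under the filter at 4.04, 3.71 and 3.99.

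HAL (Entrez Gene 3034), histidine ammonia-lyase, removes the amino group of histidine, and it was the member with the highest value over control in rGO. It read 6.38 in the control, 7.23 after GO and 6.85 after rGO. Both exposed arrays were above the control, GO by 0.85 and rGO by 0.48, the 54th and 8th highest of all 11050 differences. The control value lay under the level filter, and HAL passed the filter through the exposed arrays. UROC1, urocanase, takes the next step of histidine breakdown and read 6.68, 6.69 and 6.80 in the control, GO and rGO arrays. It was level in GO and 0.11 over control in rGO, at values close to the filter.

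Of the 4 transaminases, which move amino groups between amino acids and keto acids, 2 were above control and 2 below in the GO array, all within 1.5-fold. GOT1, the cytosolic aspartate transaminase, read 11.44, 11.74 and 11.54 in the control, GO and rGO arrays, and GO was the highest. GOT2, its mitochondrial counterpart, read 12.04, 12.11 and 11.97. The order differed between them, since rGO was above control for GOT1 (0.10) and below it for GOT2 (-0.066). GPT, alanine transaminase, read 6.80, 6.65 and 6.79, with the GO array just under the filter level. AGXT, which removes glyoxylate in liver peroxisomes, read 8.84 in the control, 8.56 after GO and 8.60 after rGO. Both exposed arrays were below control by similar amounts, -0.28 in GO and -0.24 in rGO.

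Of the 4 urea cycle genes past the filter, 3 were below control in the GO array, with a median of -0.11, where 48.9% of all genes were below control. With OTC and ARG1, which are under the filter, it was 5 of 6 and the median was -0.23. With no level filter, 51.1% of all genes were below control. CPS1 makes carbamoyl phosphate in mitochondria, and NAGS makes its essential activator. CPS1 read 8.78 in the control, 8.64 after GO and 8.89 after rGO, so that GO was below and rGO above control. NAGS was nearly level at 7.92, 7.84 and 7.90. ASS1, which joins citrulline to aspartate, had its highest value in the control.

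The values of ASS1 were 10.49 in the control, 10.16 after GO and 10.33 after rGO, a difference of -0.32 in GO and -0.15 in rGO. ASL, the lyase that follows, was the exception above control in GO, with 8.79, 8.86 and 8.70 in the control, GO and rGO arrays. ARG1, which releases urea, and OTC, which makes citrulline, were both under the filter. ARG1 read 5.24 in the control, 4.56 after GO and 5.10 after rGO, a difference of -0.68 in GO (1.60-fold lower), and OTC read 5.16, 4.86 and 5.03. Both were lowest in GO and highest in control, at levels where background can distort a difference. In rGO 5 of the 6 urea cycle genes were below control, with a median of -0.11, where 54.9% of all genes were with no level filter. Past the filter it was 3 of 4, with a median of -0.05, where 53.1% of all genes were below control.

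The branched-chain keto acid dehydrogenase commits leucine, isoleucine and valine to breakdown, and its subunits did not share a direction. BCKDHA, of the decarboxylase alpha chain, read 7.92 in the control, 8.21 after GO and 7.93 after rGO. BCKDHB, the beta chain, read 8.70, 8.60 and 8.71, and DBT, the transacylase core, read 7.99, 7.94 and 8.10. GO was thus the highest array for the alpha chain and the lowest for the beta chain and the core. In rGO the alpha and beta chains were within 0.01 of control, and DBT was 0.11 above it.

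The methionine cycle was split in the GO array, with MAT1A and BHMT below control and GNMT and AHCY above it. MAT1A (Entrez Gene 4143) makes S-adenosylmethionine, the methyl donor, in adult liver. It read 9.73 in the control, 9.12 after GO and 9.57 after rGO, a difference of -0.61 in GO that came to -0.58 after quantile normalization, short of 1.5-fold. BHMT (Entrez Gene 635), which remethylates homocysteine with betaine, read 8.14 in the control, 7.61 after GO and 8.06 after rGO. For both genes GO was the lowest array and the rGO value lay between GO and control, with rGO differences of -0.16 and -0.076.

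GNMT, which uses up surplus S-adenosylmethionine, read 6.92, 7.02 and 6.91 in the control, GO and rGO arrays. AHCY, which splits S-adenosylhomocysteine, read 11.20, 11.45 and 11.27. Both were highest in GO, AHCY by 0.25 and GNMT by 0.10 over control, so that the group's median of -0.22 covers opposite directions. In rGO the group's differences ran from -0.16 to 0.07.

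RIDA (Entrez Gene 10247) hydrolyses the reactive imines that serine and threonine dehydratases release, and so stands beside amino acid breakdown as a safeguard. It read 9.29 in the control, 7.82 after GO and 8.91 after rGO. GO was the lowest array, -1.46 from control and the 12th lowest of all 11050 differences, and rGO lay between GO and control at -0.38, the 101st lowest. The RefSeq gene table names 3 pseudogenes of RIDA, 14 of ASS1, 8 of AHCY, 7 of GOT2 and 1 of ASL. Whether their transcripts reach the same probes was not tested.

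**Figure D3:**
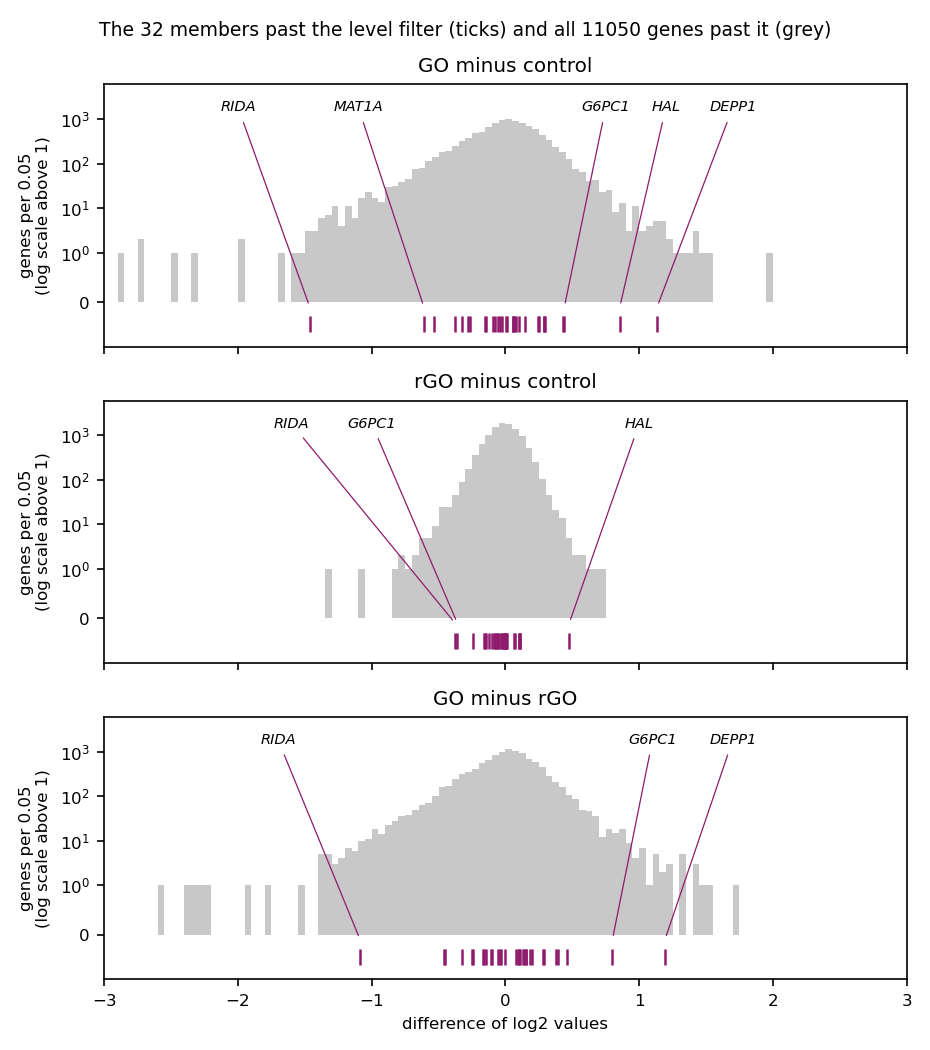
Number of genes (grey, vertical axis in bins of 0.05 log2, logarithmic above 1) by difference of log2 values (horizontal axis) over the 11050 genes past the level filter, with the 32 members as ticks, in the 3 comparisons (panels). Most ticks sit under the body of the grey distribution, with RIDA, DEPP1 and HAL toward its edges in GO minus control, and HAL, RIDA and G6PC1 in rGO minus control.

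Set directly against each other, at doses matched by effect on viability and not by concentration, the GO and rGO arrays differed most for DEPP1 (1.19), RIDA (-1.09) and G6PC1 (0.80). The GO array was 1.74-fold above the rGO array for G6PC1. At 2-fold, 1 of 32 members was higher in GO (0.262% of all genes) and 1 lower (0.534%), and at 1.5-fold 2 were higher (1.82%) and 1 lower (3.2%). The median over the members was 0.09 (0.0067 over all 36 measured members), against 0.01 over all genes, and 18 were above 0 (52.9% of all genes). HAL, which was above control in both exposures, stood 0.38 higher in GO than in rGO. AGXT and PCK2 differed little between the materials, at -0.042 for AGXT and at equal values of 9.98 for PCK2. With 1 array each, none of these differences can be told from variation between dishes of cells.

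Beyond the members, 174 other genes of the same pathways were listed by function in 8 groups, with earlier results of these data known. Of these 160 were measured, and 137 passed the filter. In the GO array 55 were above control and 82 below (51.1% and 48.9% of all genes), with a median of -0.05. At least 1.5-fold higher were 4 of the 137 (1.91% of all genes) and at least 1.5-fold lower were 8 (4.23%), and 1 gene was at least 2-fold higher (0.253%). In the rGO array 54 were above and 83 below (46.8% and 53.1% of all genes), with a median of -0.02. Past 1.5-fold were 0 of them, where 0.0271% of all genes were that much higher and 0.127% lower.

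The gene past 2-fold was IGFBP1, which encodes a plasma protein that holds insulin-like growth factors and is, like G6PC1, a gene restrained by insulin. IGFBP1 read 10.28 in the control, 12.27 after GO and 10.55 after rGO. It was high in the GO array and only slightly above control in rGO (1.99 and 0.26). IGFBP1 was counted among the regulators of gluconeogenesis. Since the lists were made with earlier results known, its place in the 2-fold and 1.5-fold counts and among the regulators above 0 is no support. Over the 29 regulators of gluconeogenesis past the filter the GO median was 0.04, with 18 above 0 (51.1% of all genes). TXNIP, a glucose-induced brake on glucose uptake, stood at 0.74 in GO and -0.10 in rGO. CEBPA and KLF15, factors that act on gluconeogenic and amino acid genes in liver, stood at -0.55 and -0.43 in GO. Among the 16 genes of glucose production shared with glycolysis 12 were above 0 in GO (51.1% of all genes), with a median of 0.11. PFKFB1, among these 12, read 6.585 in the control, under the filter. It passed through the exposed arrays, so its place there is no support. The isomerase GPI stood at 0.70 and ENO1 at 0.29, while MPC2, a subunit of the mitochondrial pyruvate carrier, stood at -0.74 and GPD1 at -0.49.

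Breakdown of branched-chain amino acids and lysine had the lowest median of these groups in GO, -0.23, with 21 of 24 genes below control (48.9% of all genes) and 3 at least 1.5-fold lower (4.23%). The thiolase ACAT1 stood at -0.73 and the epimerase MCEE at -0.69. BCKDK, the kinase that switches the keto acid dehydrogenase off, stood at 0.34 and ECHS1 at 0.17. Of 10 further genes for aromatic amino acids, 9 were below control (48.9% of all genes) with a median of -0.21. KYAT3, a kynurenine aminotransferase, stood at -0.80, the decarboxylase DDC at -0.27, PCBD2 at -0.069 and QDPR, which recycles the same pterin as PCBD1, at 0.41. PCBD2, among the 9 below control, read 6.63 after GO, under the filter. It passed through the control and rGO arrays, so its place there is no support. In rGO the medians of these groups were -0.05 and -0.001.

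Of 22 genes for methionine, choline and sulphur amino acids, 15 were below control in GO (48.9% of all genes), with a median of -0.13. CSAD, among these 15, read 6.51 after GO, under the filter. It passed through the control and rGO arrays, so its place there is no support. CDO1, which oxidises cysteine, stood at -0.89 and MTRR at -0.57, whereas SQOR, which oxidises sulphide, stood at 0.71 and MTR at 0.41. Histidine, serine, glycine, threonine and proline breakdown had a median of -0.09, with 13 of 18 below control (48.9% of all genes). ALDH4A1 of proline breakdown stood at 0.53 and GLDC at 0.21, and DLD at -0.48 and FTCD at -0.32.

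The remaining transaminase, glutamate, aspartate and ornithine genes had a GO median of 0.02 over 9 genes. NIT2, an omega-amidase, stood at -0.69 and OAT, ornithine aminotransferase, at -0.12. ASRGL1 and ABAT stood at 0.46 and 0.25. The 9 other urea cycle and ammonia genes had a median of -0.02. RHBG, an ammonium transporter, stood at -0.63 and the carbonic anhydrase CA5A at -0.32, with SLC7A2, which imports arginine, at 0.36 and the aspartate carrier SLC25A12 at 0.23.

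**Figure D4:**
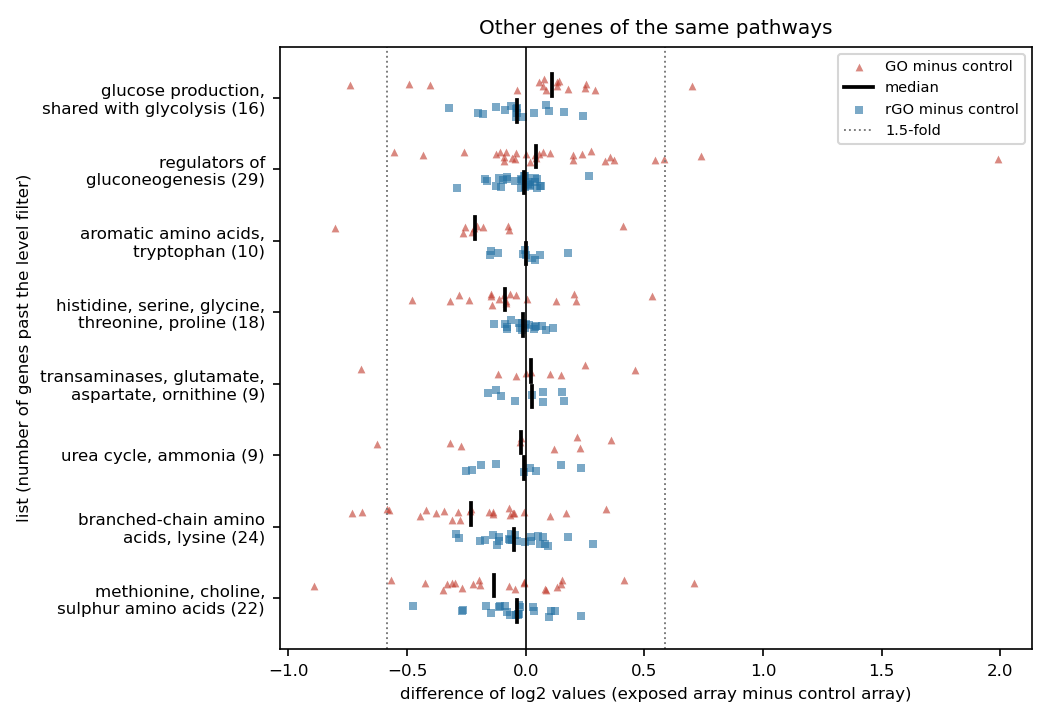
Difference of log2 values from the control array (horizontal axis) for the 137 other pathway genes past the level filter in 8 groups (rows, number of genes in brackets), with GO minus control as triangles, rGO minus control as squares, black bars at the medians and dotted lines at 1.5-fold. The rGO squares all lie inside the dotted lines, and IGFBP1 at 1.99 is the triangle farthest to the right.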

How the data were processed

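The deposited values are the authors' log2 expression values of 33297 probe sets on 3 arrays, made from biotin-labelled cDNA. RMA and MAS5 appear in the submitters' processing notes with no role or version, and the near-equal distributions look normalised between arrays; any further scaling is unknown. Probe sets were named from GEO's platform annotation, which can be old: 19460 carried 1 symbol, 1754 several and 12083 none listed here. Each gene was represented by its probe set with the highest mean (769 genes had more than 1, and 35 of the 36 measured members had only 1).

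The differences of log2 values between arrays were computed here and called by a fixed fold of 1.5 or 2, with no test. The members, gene lists and rules were chosen with earlier results of these data known. All measured members are named; of the other pathway genes past the filter, those at least 2-fold from control and the 2 highest and 2 lowest of each group in GO minus control are named. Pseudogenes were counted by symbol in RefSeq's gene table. The size rule was tested on simulated data. The 6 alternatives were quantile normalization, median centring, loess (span 0.3), no level filter, a 60th percentile filter and averaging the probe sets of a gene. Python 3.11.15, numpy 2.4.6, pandas 2.3.3, statsmodels 0.14.6 and matplotlib 3.10.9 were used.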

Additional observations from a re-analysis of the deposited data

How the results depend on the processing

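The counts of members past 2-fold were equal under all 6 alternatives in each of the 3 comparisons, as were all counts in rGO minus control. In GO minus control, quantile normalization left 1 member at least 1.5-fold lower in place of 2, since MAT1A came to -0.58, and the 60th percentile filter left 1 member at least 1.5-fold higher in place of 2, since it removes HAL. With no level filter the median of GO minus rGO was 0.0067 over 36 members in place of 0.09 over 32, and ARG1 joined the members at least 1.5-fold lower in GO, for a count of 3. Averaging probe sets could change no member, since 35 have 1 probe set and the 2 of HGD are identical. Under the 3 normalizations, 321 of 324 recomputed differences of single members moved by less than the probe set spread, scaled as above. Of those past 1.5-fold, 0 changed sign. The 3 that moved further were GOT1, GOT2 and AHCY in GO minus rGO after quantile normalization, at 0.28, 0.22 and 0.26. No paired analysis was possible because each group has 1 array, and for the same reason no array could be left out. Members near or under the level filter (HAL, UROC1, GPT, FBP1, TDO2, OTC and ARG1) can have understated or distorted differences.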
